A study of Homo sapiens with 2 samples.

Results

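The sodium-calcium exchangers of the SLC24 and SLC8 families were described in the 2 substates of H9, an established line of human embryonic stem cells. The members were the 9 human genes SLC24A1 to SLC24A5, SLC8A1 to SLC8A3 and SLC8B1. They were read by 14 of the 58201 non-control probes of a whole-genome expression array, namely every probe whose RefSeq transcript belonged to one of these genes. Of the 14 probes, 8 read SLC24 genes and 6 read SLC8 genes. A single probe read each of 5 genes, 3 genes had 2 probes, and 1 gene had 3.

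Total RNA came from H9 cells grown on Matrigel, a basement membrane extract, in the defined medium TeSR-E8. The study classed colonies by bright-field appearance and 2 stains, for the R-10G epitope (a surface keratan sulphate) and the mesenchymal filament protein vimentin. Colonies rich in the epitope and lacking vimentin were called substate 1, and looser, vimentin-positive ones with less of the epitope substate 2. One array held RNA of substate 1 cells at passage 35 and one held RNA of substate 2 cells at passage 50, so substate and passage cannot be told apart. With 1 array per substate there is no replicate, no test between the substates was possible, and every difference below compares these 2 libraries.

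Both families move calcium across a membrane in exchange for sodium, and at the plasma membrane they drive it out of the cell with the sodium gradient that the sodium-potassium pump maintains. The SLC8 exchangers NCX1 to NCX3 trade calcium for sodium alone across the plasma membrane, whereas the SLC24 exchangers, named NCKX, carry potassium out together with calcium. NCLX, the product of SLC8B1, is the sodium-calcium exchanger of the mitochondrial inner membrane. In excitable and sensory cells these carriers end calcium signals, and several members are best known from a single tissue such as the rod photoreceptor, the heart or the pigment cell.

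Each spot carried a processed signal in scanner units and the error that the image software estimated for it. Normalised values were log2 signals relative to the 75th percentile of the same array, which was 313.7 for substate 1 and 275.4 for substate 2. The difference was substate 2 minus substate 1 on that log2 scale. Its modelled error combined the software's errors of both spots, covers the spots only, and says nothing of the spread between cultures. A second measure of spot error came from probes printed several times on each array, for which the SD of a difference between single spots was 0.29 at signals under 50 (7 probes on each array), 0.15 from 50 to 200 and 0.09 from 200 to 1000. The scanner software marked 55.6% of the probes of the substate 1 array and 52.8% of those of the substate 2 array as well above background, and no probe was saturated. Vimentin (VIM), which defined the substates by staining, read 2802 in substate 1 and 14160 in substate 2, and the epithelial adhesion gene CDH1 read 9463 and 2993. Following the study, a difference was called when its Z-score over all probes reached 2 in either direction, which corresponded to a log2 difference of 1.34 (2.53-fold) upward and -1.19 (2.29-fold) downward.

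Most exchanger probes gave similar signals in the substates, and the exceptions lay in both directions. Substate 2 had more signal at 1 of 2 SLC24A2 probes, at SLC8A1 probes 1 and 3 and at the dim SLC8A3 probe, and less at the SLC8A2 probe. Signal was well above background on both arrays for 11 of the 14 probes. It was so in substate 2 alone for SLC8A3, in substate 1 alone for SLC24A2 probe 1, and in neither substate for SLC24A4 probe 2. Every gene but SLC8A3 thus had at least 1 probe measured on both arrays. Among those 11 probes, 7 were higher and 4 were lower in substate 2, with a median difference of 0.15 beside 0.06 for all 29883 probes of that kind. By gene, 59.8% of all 16001 genes measured on both arrays were higher in substate 2. The difference was smaller than its modelled error for 4 of the 11 probes, between 1 and 2 modelled errors for 3, and over 2 modelled errors for 4.

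**Figure D1:**
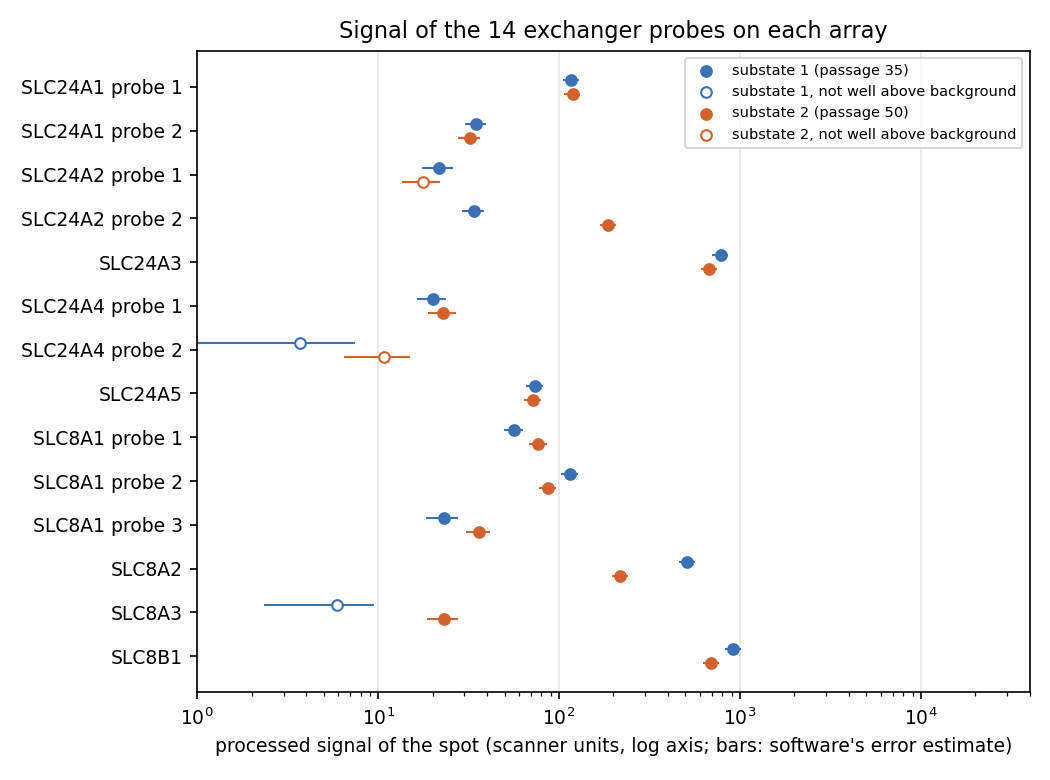
Processed signal of each exchanger probe (horizontal, scanner units on a log axis) on the substate 1 array (blue) and the substate 2 array (orange), 1 array each, with bars for the software's error estimate and open symbols where the spot was not well above background. SLC24A2 probe 2, SLC8A2 and SLC8A3 show the widest gaps between the arrays beyond the error bars, and levels of different probes are not comparable with each other.

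Above the upper Z-score limit were 3 of the 14 probes (21.4%), read against 3.03% of all 58201 probes. They were SLC24A2 probe 2, SLC8A3 and SLC24A4 probe 2. Below the lower limit was none, read against 3.30% of all probes. The limits fall unevenly over the range of signal, since they were passed by 0.977% of probes measured on both arrays, 32.1% of probes measured on 1 array and 9.35% of probes measured on neither. Each of the 3 exchanger probes above the limit came from a different class, so SLC24A2 probe 2 was the only one of them measured on both arrays. A second rule asked for a difference of 2-fold or more and left out probes that neither array measured. Where 1 array was dim, the bright value was compared with the higher of that array's detection level and the dim value itself. The result is a bound, used for each fold given below as at least, and it makes no allowance for spot error. This rule took 1 higher probe (SLC24A2 probe 2) and 1 lower probe (SLC8A2), read against 1.55% and 1.67% of 33166 probes.

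**Figure D2:**
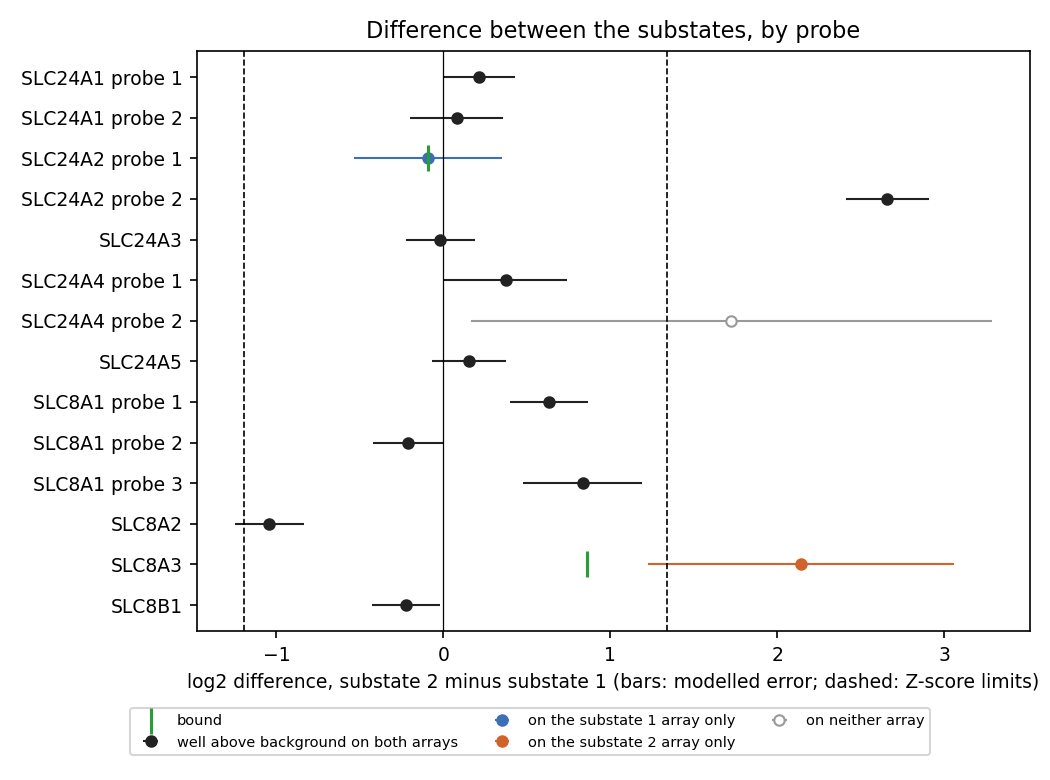
Log2 difference between the substates (substate 2 minus substate 1) for each exchanger probe, with bars for the modelled error, dashed lines at the Z-score limits of -1.19 and 1.34, and green ticks at the bound of probes measured on 1 array. SLC24A2 probe 2 lies at 2.66, SLC8A2 at -1.04 just inside the lower limit, and the grey open point of SLC24A4 probe 2 comes from spots near background on both arrays.

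Upstream sequences are printed for orientation for the 4 genes with the largest measured difference at any single probe. For SLC24A4 that was probe 2, which was well above background on neither array. By the mean of probes measured on both arrays, SLC24A4 (0.37) lay under SLC8A1 (0.42). The sequences are shown because ZEB1, a repressor that binds E-boxes, had higher signal in substate 2 by both of its probes (148.6 and 692.8 for one, 25.69 and 143.3 for the other). The windows hold the 250 bases before the annotated RefSeq start on GRCh38.p14, written 5′ to 3′ on the gene's strand. They lie at chr9:19789038-19789287 (minus strand) for SLC24A2, chr14:92322331-92322580 (plus strand) for SLC24A4, chr19:47471894-47472143 (minus strand) for SLC8A2 and chr14:70189406-70189655 (minus strand) for the outer start of SLC8A3. Capitals mark the E-box letters CACCTG on either strand (CAGGTG on the other).
SLC24A2: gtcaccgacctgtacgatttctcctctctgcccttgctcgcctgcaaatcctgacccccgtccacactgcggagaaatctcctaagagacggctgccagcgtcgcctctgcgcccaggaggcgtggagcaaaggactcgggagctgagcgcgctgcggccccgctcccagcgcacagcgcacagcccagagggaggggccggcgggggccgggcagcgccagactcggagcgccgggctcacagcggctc
SLC24A4: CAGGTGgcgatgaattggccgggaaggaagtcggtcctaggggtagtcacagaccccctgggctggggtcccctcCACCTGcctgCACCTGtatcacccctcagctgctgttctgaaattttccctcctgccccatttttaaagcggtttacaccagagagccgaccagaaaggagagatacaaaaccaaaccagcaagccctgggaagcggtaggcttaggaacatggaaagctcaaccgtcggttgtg
SLC8A2: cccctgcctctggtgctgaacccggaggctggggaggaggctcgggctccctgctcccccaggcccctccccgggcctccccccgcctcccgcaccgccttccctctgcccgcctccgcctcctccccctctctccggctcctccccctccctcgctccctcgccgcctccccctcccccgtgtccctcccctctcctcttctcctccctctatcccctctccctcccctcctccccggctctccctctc
SLC8A3: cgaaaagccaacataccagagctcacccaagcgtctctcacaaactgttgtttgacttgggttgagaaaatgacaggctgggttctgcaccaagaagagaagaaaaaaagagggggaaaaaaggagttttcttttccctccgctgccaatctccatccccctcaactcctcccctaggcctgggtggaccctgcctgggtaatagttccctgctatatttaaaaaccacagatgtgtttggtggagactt

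The SLC24A4 window held the E-box letters in 3 places, starting 250, 175 and 165 bases before the start. Among the 13 starts listed for 8 of the 9 genes, 1 other held them, the second start of SLC24A1, 101 bases before it, and SLC24A3 had no entry. At least 1 such match was present in 17.5% of all 35116 windows of the same length, and nothing about the exchangers is read from 2 of 13. CpG dinucleotides numbered 25 before SLC24A2, 8 before SLC24A4, 14 before SLC8A2 and 3 before the outer start of SLC8A3, beside a median of 11 over all windows. The inner start of SLC8A3, which is not printed, had 22. The GC box letters GGGCGG (either strand) were in none of the 4 printed windows and in 42.6% of all windows. The TATA box letters TATAAA (either strand) were also in none of the 4, and in 10.7% of all windows. A match is only a string of letters, absence says nothing of other sites, and binding was not measured here.

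SLC24A2 encodes NCKX2, the exchanger of neurons and cone photoreceptors. Probe 2 (A_33_P3367731) had a signal of 33.75 ± 4.68 (software's error) in substate 1 and 187.3 ± 19.1 in substate 2, well above background on both arrays. Relative to the 75th percentile these were log2 values of -3.22 and -0.56, a difference of 2.66 ± 0.25 (modelled error), or 6.32-fold higher in substate 2, with a Z-score of 4.09. The value exceeded the 0.15 to 0.29 that spots of comparable signal differ by, and 10 of the 29883 probes measured on both arrays (0.0335%), this one included, differed as much or more upward. Under normexp the difference of probe 2 was 1.44. Probe 1 (A_23_P112173), annotated to the same transcript, was not higher in substate 2. Its signal was 21.62 ± 4.18 in substate 1 and 17.81 ± 4.22 in substate 2, where it was not well above background. The measured difference of -0.09 was within its modelled error of 0.44, and its sign turned under normexp.

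The probes of SLC24A2 were therefore 2.75 log2 units apart. Of the 4555 genes with at least 2 probes measured on 1 or both arrays, 3 (0.0659%), SLC24A2 included, had a range as wide. For this count, probes measured on 1 array entered at their bound, which narrows some ranges. For SLC24A2 probe 1 the bound equals the measured -0.09. Which probe reads the SLC24A2 messenger more faithfully was not tested, and no probe sequence was used here. The study first listed SLC24A2 and SLC24A4 as candidate markers of substate 2 in part from these arrays, so neither value is independent evidence of its direction. It then measured the listed candidates by RT-PCR to choose among them, and that outcome is not reported here.

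SLC24A4 encodes NCKX4, which serves olfactory neurons and the enamel-forming ameloblast. Probe 1 (A_23_P503010) had signals of 20.09 ± 3.69 and 22.84 ± 3.999 in substate 1 and substate 2, both well above background but close to it. The difference of 0.37 on the log2 scale was as large as its modelled error of 0.37 and had a Z-score of 0.47. Probe 2 (A_33_P3318148), annotated to another transcript of the gene, had signals of 3.70 ± 3.73 and 10.75 ± 4.24, well above background on neither array. Its measured difference was 1.73 with a modelled error of 1.56. Its Z-score of 2.61 put SLC24A4 past the limit, and no fold is given because both spots were near background. SLC24A4 was thus called by its dim probe, while the probe that both arrays measured lay well inside the limits.

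The other SLC24 members differed little. SLC24A1 encodes NCKX1, the exchanger of rod outer segments. Its probe 1 (A_23_P205913) read 116.6 ± 12.0 in substate 1 and 119.0 ± 12.3 in substate 2, a log2 difference of 0.22 ± 0.21 (modelled error). Probe 2 (A_33_P3417670) read 34.74 ± 4.61 and 32.26 ± 4.52, a difference of 0.08 ± 0.28. Both probes of SLC24A1 thus stayed near their error and lay 0.14 apart. SLC24A3 encodes NCKX3, a widely expressed exchanger found in brain and smooth muscle. Its probe (A_23_P79978) read 781.1 ± 78.2 and 677.7 ± 67.8, a difference of -0.02 ± 0.20, whose sign turned under centring on the median and under another background correction. SLC24A5 encodes NCKX5, an intracellular exchanger that pigment cells need to make melanin. Its probe (A_33_P3400688) read 73.28 ± 7.90 and 71.58 ± 7.80, a difference of 0.15 ± 0.22. For these genes the raw signals were alike or slightly lower in substate 2, and the scaling to the 75th percentile, which was lower on that array, moved each difference upward.

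SLC8A1 encodes NCX1, the main calcium extruder of heart muscle, which many other tissues also express. Its 3 probes, annotated to 1 transcript and measured on both arrays, did not move together. Probe 1 (A_24_P136866) read 56.41 ± 6.70 in substate 1 and 76.81 ± 8.63 in substate 2, a log2 difference of 0.63 ± 0.24 (modelled error). Probe 2 (A_32_P147078) read 114.8 ± 11.8 and 87.15 ± 9.24, a difference of -0.21 ± 0.21. Probe 3 (A_33_P3262156) read 23.03 ± 4.60 and 36.08 ± 5.29, a difference of 0.84 ± 0.36. Probes 1 and 3 were higher in substate 2 by over 2 modelled errors, whereas probe 2 was lower by about its error. Their mean difference was 0.42, and the probes covered a range of 1.05. Of 649 genes with exactly 3 probes measured on both arrays, 19 (2.93%) had a range at least as wide, and 303 (46.7%) had probes of opposite sign.

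SLC8A2 encodes NCX2, found mainly in neurons of the brain. It was the only exchanger probe at least 2-fold lower in substate 2, a call that was lost under normexp (-0.84). The Z-score of SLC8A2 under normexp was -4.01, past the lower limit. Its probe (A_33_P3319542) read 511.4 ± 51.3 in substate 1 and 218.0 ± 22.1 in substate 2, well above background on both arrays. The normalised log2 values were 0.71 and -0.34, a difference of -1.04 ± 0.21 (modelled error), or 2.06-fold lower in substate 2. The difference exceeded the 0.09 that spots of this brightness differ by, and 315 of the 29883 probes measured on both arrays (1.05%) were as low or lower. Its Z-score of -1.76 lay inside the limit of the study. When the Z-score was taken over probes measured on both arrays alone, where the spread is narrower, the value was -2.68, past the limit that 3.04% of those probes passed downward and 1.64% upward. With a single probe for SLC8A2, no second probe bears on this value.

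SLC8A3 encodes NCX3, an exchanger of brain and skeletal muscle. Its probe (A_24_P167654) read 5.95 ± 3.60 in substate 1, not well above background, and 23.06 ± 4.43 in substate 2, where it was. Substate 2 was therefore at least 1.82-fold higher by the bound, which makes no allowance for spot error. The log2 difference under normexp, 0.46, was smaller than this bound. The measured difference was 2.14 ± 0.92 (modelled error) with a Z-score of 3.27, while the bound of 0.86 on the log2 scale lay under both the Z-score limit and the 2-fold rule. The SLC8A3 spot thus lay below the detection level on 1 array and just above it on the other, and only the bound is free of the dim spot's own value.

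SLC8B1 encodes NCLX, through which mitochondria release calcium back to the cytosol. Its probe (A_23_P328600) read 921.4 ± 92.2 in substate 1 and 693.7 ± 69.4 in substate 2. The log2 difference of -0.22 ± 0.20 (modelled error) was about as large as its error, with a Z-score of -0.46, and larger than the 0.09 between spots of this brightness.

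**Figure D3:**
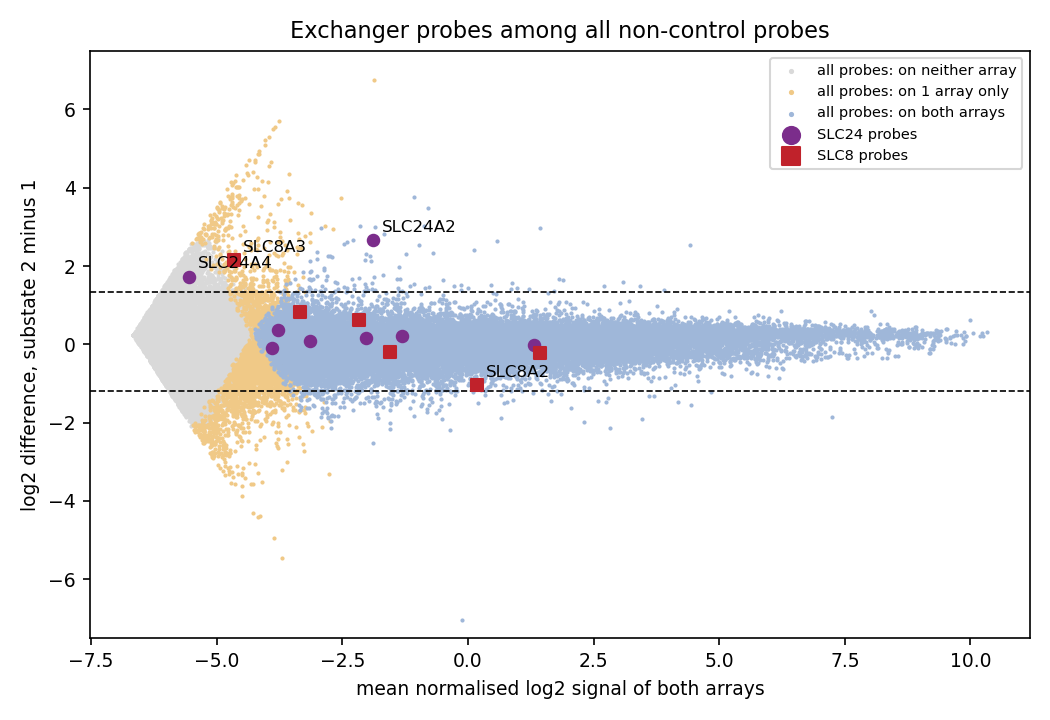
Log2 difference between the substates (vertical) against the mean normalised log2 signal of both arrays (horizontal) for all 58201 probes, in grey, yellow and blue for probes well above background on neither, 1 and both arrays, with SLC24 probes as purple circles, SLC8 probes as red squares and dashed lines at the Z-score limits. SLC24A2 probe 2 stands above the blue cloud, whereas SLC8A3 and SLC24A4 probe 2 lie at the dim end, where differences of all probes spread widely.

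In 4 of the 9 genes several probes could be set against each other. The range was 0.14 for SLC24A1, 1.05 for SLC8A1, 1.35 for SLC24A4 and 2.75 for SLC24A2, the last 2 with a probe near background on at least 1 array. Over the 4236 genes with at least 2 probes measured on both arrays, the median range was 0.18, and 62 genes (1.46%) reached the range of SLC8A1. Probes of opposite sign were present in 29.9% of those genes. The probes of SLC24A1 thus lay close together, those of SLC8A1 and SLC24A2 differed in sign, and those of SLC24A4, annotated to different transcripts, shared a sign with a gap smaller than the modelled error of the dim probe.

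Among the alternatives, the normexp setting moved the larger exchanger differences most. It models the background, but it also took median spot signals in place of the processed ones and added an offset of 50, and these steps were not run apart. It lowered the difference of SLC24A2 probe 2 from 2.66 to 1.44, of SLC8A3 from 2.14 to 0.46 and of SLC24A4 probe 2 from 1.73 to 0.14. It moved SLC8A1 probe 3 from 0.84 to 0.42 and SLC8A1 probe 2 from -0.21 to -0.07, and it turned SLC24A2 probe 1 from -0.09 to 0.06. SLC8A2 moved from -1.04 to -0.84, so that 0 exchanger probes were 2-fold lower. Under normexp SLC24A2 probe 2 had a Z-score of 5.80 and SLC8A2 of -4.01, each past the limit, while SLC8A3 (1.61) and SLC24A4 probe 2 (0.21) were inside it.

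**Figure D4:**
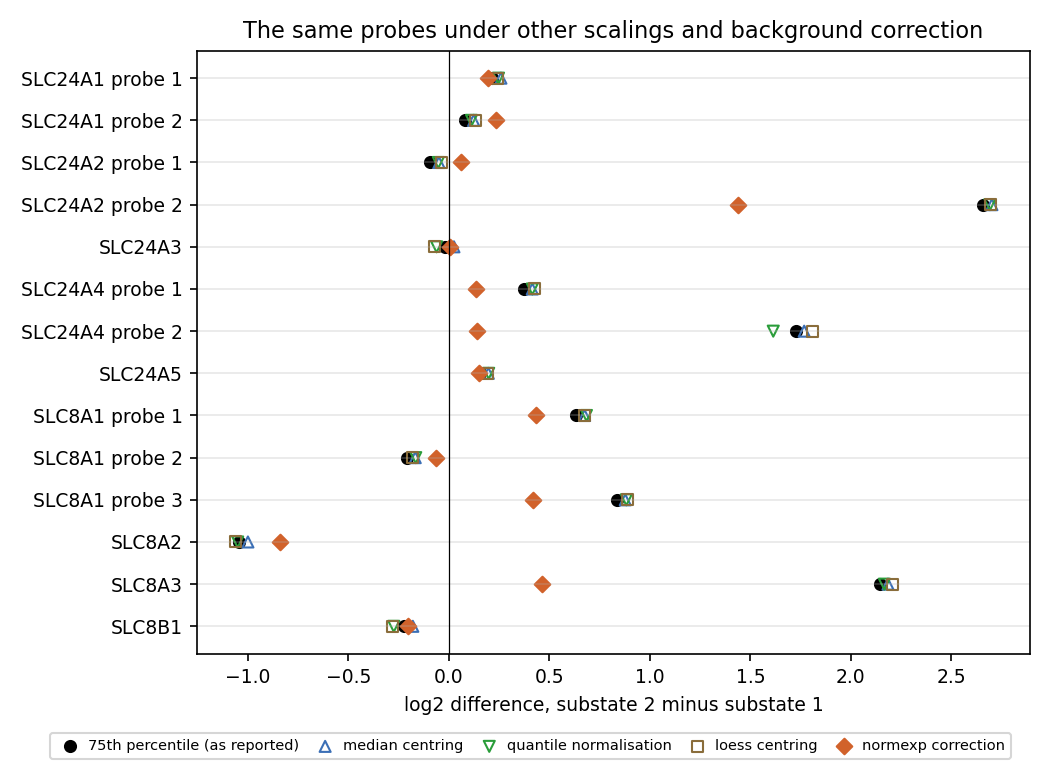
Log2 difference between the substates for each exchanger probe as reported (black circles), after median centring (blue triangles), quantile normalisation (green triangles) and loess centring (brown squares), and after normexp background correction (orange diamonds). The 3 scalings stay close to the black circles, and the diamonds of SLC24A2 probe 2 (1.44), SLC8A3 (0.46) and SLC24A4 probe 2 (0.14) lie far to the left of them.

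The exchangers work beside other carriers of calcium and sodium, and 57 genes of 9 such lists were read by 88 probes. Of these genes, 51 were measured on both arrays, 25 higher and 26 lower in substate 2. None was 2-fold higher and 1 was 2-fold lower, where 0.931% and 1.07% of all 16001 measured genes were. Their median difference was -0.0003, beside 0.08 for all measured genes, of which 59.8% were higher, and 8 exchanger genes had a median of 0.15. The sign of the transport median turned under median centring and under normexp.

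Among carriers that clear the cytosol of calcium, all 5 genes of the reticulum and Golgi pump list were lower in substate 2, with a median of -0.32 that was -0.09 under normexp. ATP2C2, a Golgi calcium and manganese pump, had the lowest value, with signals of 126.5 in substate 1 and 39.28 in substate 2, a log2 difference of -1.50 with a Z-score of -2.48. One of 3 probes of ATP2A1, the calcium pump of fast skeletal muscle, read 21.56 in substate 1 and 6.74 in substate 2, where it was not well above background, which gave at least 1.26-fold lower. ATP2A3 differed least on this list, by -0.11. Of the plasma membrane pumps, 2 of 3 measured genes were higher by under 0.01 and ATP2B1 was at -0.24, so the median of 0.006 has no settled sign and turned under normexp.

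Channels that let calcium in were mixed. Among voltage-gated channel genes, 1 probe past a Z-score limit was measured on at least 1 array, that of CACNA1D, a neuronal and endocrine L-type channel. It read 9.34 in substate 1, not well above background, and 36.83 in substate 2, at least 2.90-fold higher with a Z-score of 3.31. A probe of CACNA1C near background on both arrays (8.78 and 3.21) was past the lower limit, with a Z-score of -2.11. The 7 voltage-gated genes measured on both arrays ran from -0.48 (CACNA1C, the cardiac L-type channel) to 0.58 (CACNA1B, the N-type channel of nerve endings), 4 higher and 3 lower with a median of 0.31 that was 0.14 under normexp. Of the store-operated entry genes, 4 of 5 were higher, from -0.09 for the reticulum calcium sensor STIM2 to 0.54 for the channel subunit ORAI3, with a median of 0.17. The release channels of the reticulum had 2 genes higher and 4 lower, from -0.90 for the ryanodine receptor RYR2 to 0.27 for RYR3, with a median of -0.19.

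The mitochondrial uptake machinery, which loads the calcium that NCLX releases, had 6 genes higher and 2 lower, from -0.26 (SMDT1, a uniporter subunit) to 0.33 (MCUR1, a uniporter regulator), with a median of 0.16. The sodium-potassium pump, which maintains the gradient the exchangers use, had 2 genes higher and 5 lower, with a median of -0.12 (-0.22 after loess centring) and the lowest value, -0.38, for the beta subunit ATP1B1. The sodium-proton exchangers had 2 genes higher and 5 lower, from -0.81 (SLC9A5, a neuronal form) to 0.33 (SLC9A4), with a median of -0.04 whose sign turned under median centring and normexp. All 3 calmodulin genes, which encode the same calcium sensor protein, were higher by 0.47 to 0.50, and by a median of 0.38 after loess centring.

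**Figure D5:**
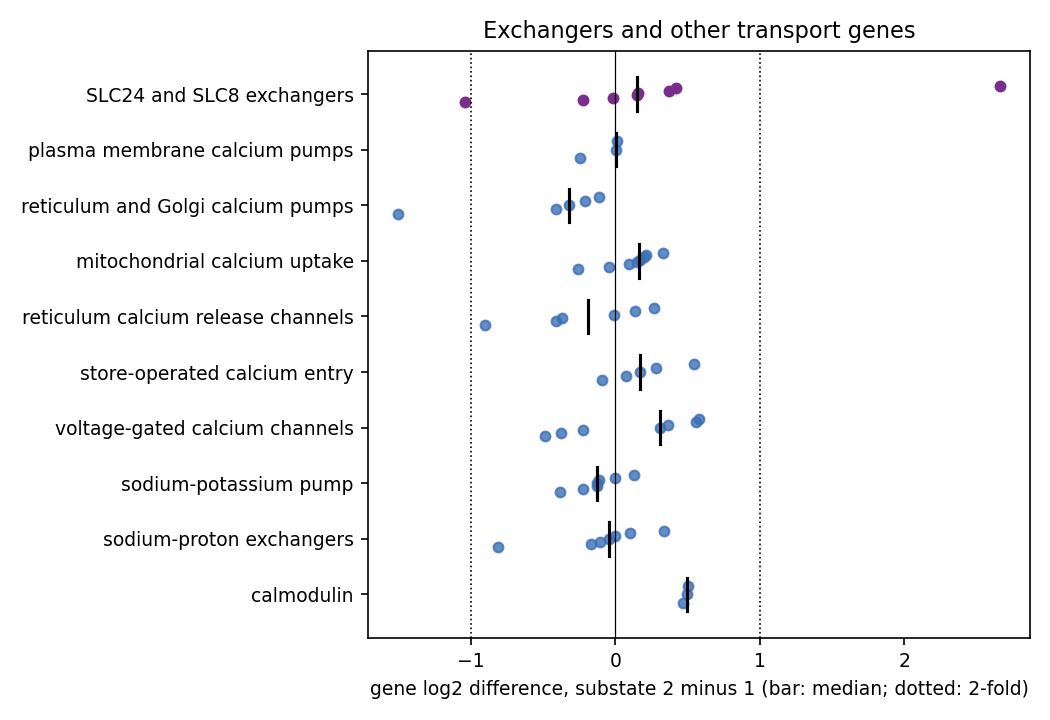
Log2 difference between the substates (horizontal) for each gene measured on both arrays, as the mean of its probes that both arrays measured, in the exchangers (purple) and 9 lists of calcium and sodium transport genes (blue), with black bars at list medians and dotted lines at 2-fold. SLC24A2 at 2.66, which rests on probe 2 and leaves out probe 1 (-0.09), is the rightmost point, SLC8A2 at -1.04 and ATP2C2 at -1.50 lie beyond 2-fold lower, and the calmodulin genes sit together near 0.50.

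Markers of the tissues in which members are best known were read for comparison. All 6 probes of the pluripotent markers POU5F1, NANOG, SOX2, LIN28A and DNMT3B were well above background on both arrays, with gene differences of 0.18 to 0.42. All 10 neuronal probes were too, with a summed signal of 27.5 and 30.5 times the 75th percentile in substate 1 and substate 2. A single RBFOX3 probe (6517 and 6222) made up most of both sums. Of 7 neuronal genes, 6 were higher in substate 2, beside 59.8% of all measured genes. STMN2 was the highest (190.6 and 458.0), and SYT1 was lower by both of its probes (993.4 and 725.4, 53.54 and 20.18). Photoreceptor markers had 6 of 10 probes well above background on each array, summed signals of 1.51 and 1.62, and GNAT1 and CRX on neither. Melanocyte markers had 3 of 12 on each array (37.0 and 30.6 summed, mostly PMEL), with TYR and MLANA on neither. Cardiomyocyte markers had 4 of 9 on each (110.0 and 134.0 summed, mostly NKX2-5), with MYH6, PLN and CASQ2 on neither, and no ameloblast probe of 5 was on either (0.0679 and 0.102 summed). The part of any such cells in the SLC24A2, SLC24A4, SLC8A2 and SLC8A3 values was not tested, and in bulk RNA a change in the share of cells and a change per cell cannot be told apart.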

How the data were processed

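Messenger RNA of substate 1 and substate 2 H9 cells was measured on 1 single-colour Agilent array each, on the same slide and in the same scan. The authors deposited the scanner output, in which each spot has a processed intensity, and, per the file headers, Agilent Feature Extraction 11.5.1.1 had subtracted background and marked spots well above background, saturated or outlying. The flags deposited with the intensities are other, yes-or-no values and were used as given. The authors also deposited log2 values, made by setting signals under 1 to 1 and shifting each array by its 75th percentile, and these differed from the log2 values computed here by 1 constant per array for 100.0% of probes within 0.01.

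Here the log2 of the intensity (floor 1, reached by 0 spots) minus the 75th percentile of the array was taken per probe, and Z-scores ran over all 58201 probes. For probes measured on 1 array, the bound used the detection level of the dim array, taken as its faintest signal still marked well above background (14.46 for substate 1 and 15.03 for substate 2), or the probe's own dim value where that was higher. Probes were assigned to genes by unversioned RefSeq accession (31104 probes, names of GRCh38.p14), never by symbol. The array was designed on another build, so no probe coordinates are given. A gene value is the mean of its probes measured on both arrays. All 9 exchangers and all their probes are named, and of the transport lists the genes with a called probe, otherwise the highest and lowest gene, except that some items are not reported here. The members, lists and limits were chosen with earlier results of these data known. Calculations used Python 3.11.15, pandas 2.3.3, statsmodels 0.14.6 and limma 3.58.1 in R 4.3.3, and were tested on simulated data. The alternatives were median centring, quantile normalisation, loess centring (span 0.3), limma's normexp correction (offset 50, on median spot signals, the column used here), keeping outlier spots, the deposited log2 values, other probe sets or spreads behind the Z-score, and no filter on dim probes. The number of arrays limits the precision, and no p-value is given.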

Additional observations from a re-analysis of the deposited data

How the results depend on the processing

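The 3 exchanger probes above the upper Z-score limit, 0 below the lower one, and the median difference of 0.15 kept these values within 1.5 times or within spot error under median centring, quantile and loess scaling, outlier spots kept and the deposited log2 values. Normexp correction gave 1 probe above the upper limit (SLC24A2 probe 2), 1 below the lower limit (SLC8A2) and 0 probes 2-fold lower. A Z-score over probes measured on both arrays, counted among those probes only, gave 2 above the upper limit (SLC24A2 probe 2 and SLC8A1 probe 3). On that scale SLC8A3 (5.33) and SLC24A4 probe 2 (4.28) were also past the limit but were outside the count. A Z-score over probes measured on at least 1 array, counted among those, also gave 2 (SLC24A2 probe 2 and SLC8A3). The lower count was also 1 (SLC8A2) with a Z-score over probes measured on both arrays and with an SD from the median absolute deviation. Without a filter on dim probes, 3 probes were 2-fold or more higher. By the Z-score over probes measured on both arrays, 1.64% of all such probes were past the upper limit and 3.04% past the lower one. For the other settings in which counts moved, no share of all probes is given, and nothing about the exchangers is read from those counts. Beyond which probes were counted, why these counts moved was not tested. No called exchanger difference changed sign under these alternatives. No paired analysis was possible because the design holds 1 array of each kind, and for the same reason no array could be left out. Depth is limited by signal over background, and differences of SLC24A4, SLC8A3 and SLC24A2 probe 1 rest on spots near background. The largest shift of the median of all probes measured on both arrays was 0.04, under median centring.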

Other observations

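The array also held probes for long noncoding transcripts named after the exchangers, which the choice of members left out. For SLC24A3-AS1, an antisense transcript of SLC24A3, 1 probe read 17.50 in substate 1, where it was well above background, and 13.27 in substate 2, at least 1.02-fold lower, and the other was near background on both arrays. Both probes of SLC8A1-AS1 were near background on both arrays. The probe of lnc-SLC24A5-3 read 14.59 in substate 1, just well above background, and 3.04 in substate 2, with a Z-score of -3.39 and no usable bound. The probes of lnc-SLC24A1-1, lnc-SLC24A5-1 and lnc-SLC24A5-2 were near background on both arrays.

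Among the markers of pigment cells, in which SLC24A5 is best known, 1 of 2 probes of TYRP1, a melanosome enzyme, read 3.31 in substate 1 and 38.59 in substate 2, at least 3.04-fold higher with a Z-score of 5.78. The other TYRP1 probe (4.35 and 3.73) was near background on both arrays, as were all probes of TYR and MLANA. In the other direction, 1 of 3 probes of MITF, the master regulator of pigment cells, read 35.40 in substate 1 and 13.17 in substate 2, at least 2.07-fold lower with a Z-score of -2.07, and the remaining MITF probes were near background on both arrays. SLC24A5 itself differed by 0.15.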
